A study of Mus musculus with 12 samples.

Results

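The transcripts of the dopamine receptor genes Drd1, Drd2, Drd3, Drd4 and Drd5 and of Ppp1r1b, which encodes DARPP-32, were measured in mouse auditory cortex kept in acute slices, with and without a stimulating cocktail that contained dopamine. The 6 genes were chosen by name and not by their values, though earlier results of these data were known. They were taken from 20590 gene symbols at 20989 loci, and each had 1 locus in every library. Auditory cortices came from coronal slices of 6 C57bl6/J mice at 4 weeks of age, and the hemispheres of a slice were parted at the midline. After 45 min of rest, the control hemisphere of each mouse spent 1 h in artificial cerebrospinal fluid (aCSF). The cocktail hemisphere spent 1 h in aCSF with 50 µM bicuculline methiodide, 100 µM norepinephrine, 50 µM carbamoylcholine, 100 µM dopamine, 40 µM ascorbic acid and 100 µM serotonin. The study's methods add a further rest of 1 h in aCSF for both hemispheres after the incubation, which the sample labels do not mention. Dopamine was never given alone, so its part and that of the other agents cannot be told apart.

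Dopamine receptors are G protein coupled receptors of 2 families. The D1-like receptors, encoded by Drd1 and Drd5, couple to stimulatory G proteins and raise cyclic AMP, and the D2-like receptors, encoded by Drd2, Drd3 and Drd4, couple to inhibitory G proteins and lower it. DARPP-32 is a target of protein kinase A that, once phosphorylated, inhibits protein phosphatase 1, so it links receptor signals to the phosphorylation of channels and nuclear proteins. Drd1, Drd2 and DARPP-32 are best known from medium spiny neurons of the striatum, and the cortex contains them at lower levels, with DARPP-32 mainly in deep layers.

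On the mm10 assembly the deposited tables place Ppp1r1b at chr11:98348738-98357795, Drd1 at chr13:54051183-54055658, Drd5 at chr5:38319509-38322310, Drd2 at chr9:49340662-49407214, Drd3 at chr16:43762242-43822839 and Drd4 at chr7:141292006-141295001. Drd1 lies on the minus strand and the other 5 genes on the plus strand. Exons of Ppp1r1b overlap those of 1700003D09Rik, and the single exon of Drd5 overlaps Gm26560, both on the opposite strand in GENCODE M21. How the quantification used the strand is not given in the sources used here, so the levels of Ppp1r1b and Drd5 are uncertain to the extent that reads of these partners were included. The other 4 genes had no exon overlap with another gene.

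The receptor genes differ in the sequence before their RefSeq start sites. The 250 bases upstream of the RefSeq start on GRCm38.p6, the assembly that mm10 denotes, are shown for Drd1, the most abundant receptor transcript, for Drd5, the one with the largest spread between libraries on the log2(FPKM + 1) scale, and for Drd3, which was close to 0. Capitals mark CpG dinucleotides, each window is written 5′ to 3′ on the gene's strand, and the windows are chr13:54055659-54055908 (minus strand), chr5:38319259-38319508 and chr16:43761971-43762220 (both plus strand).
Drd1: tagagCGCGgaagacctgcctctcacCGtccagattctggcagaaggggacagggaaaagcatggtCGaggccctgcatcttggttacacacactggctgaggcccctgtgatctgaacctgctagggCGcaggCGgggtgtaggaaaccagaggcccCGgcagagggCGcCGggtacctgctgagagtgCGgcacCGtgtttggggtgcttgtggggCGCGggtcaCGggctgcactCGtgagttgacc
Drd5: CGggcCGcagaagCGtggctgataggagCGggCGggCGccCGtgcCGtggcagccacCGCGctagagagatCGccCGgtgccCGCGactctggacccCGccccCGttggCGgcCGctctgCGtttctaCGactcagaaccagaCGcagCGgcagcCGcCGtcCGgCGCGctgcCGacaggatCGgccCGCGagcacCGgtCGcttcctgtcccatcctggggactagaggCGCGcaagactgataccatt
Drd3: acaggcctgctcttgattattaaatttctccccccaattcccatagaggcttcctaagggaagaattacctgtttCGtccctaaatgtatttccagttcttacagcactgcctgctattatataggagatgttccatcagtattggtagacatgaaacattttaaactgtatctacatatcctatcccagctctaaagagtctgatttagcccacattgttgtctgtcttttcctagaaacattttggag
The Drd5 window held 35 CpG, more than 97.0% of the 32841 such windows in the RefSeq table, which belong to 27018 gene symbols and have a median of 6. The Drd1 and Drd2 windows held 15 CpG each, the Drd4 window 12 and the Drd3 window 1. The RefSeq start used for Drd2 lies 259 bases from the start of the deposited locus, so its window does not adjoin that locus. Drd1 had 2 RefSeq starts, and the one nearest to the deposited locus was used. The starts also depend on the annotation. In GENCODE M21 Drd5 begins at 38319367 and Drd1 at 54055705, both inside their windows, and Drd3 at 43754026, upstream of its window. The GC content also differed, with 71.2% for Drd5, 68.8% for Drd2, 64.0% for Drd1, 56.8% for Drd4 and 39.2% for Drd3, against a median of 52.4%. The GC box letters GGGCGG, searched on both strands, occurred 3 times before Drd4, 2 times before Drd5 and Drd2, and not before Drd1 or Drd3, and 32.7% of all windows held them. The cyclic AMP response element TGACGTCA, its first letters TGACG and the TATA box letters TATAAA, searched on both strands, were in none of the 5 receptor windows, and were held by 1.55%, 17.8% and 12.4% of all windows. TGACG is contained in TGACGTCA, so these matches overlap.

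Levels are given in FPKM, fragments per kilobase of transcript and 1000000 mapped fragments, as deposited for each library, so levels of different genes can be set side by side. The libraries held 10601067 to 19768881 recovered reads in control and 13544297 to 17643462 in cocktail, and control mouse 1 was the deepest library. Cortical excitatory markers (Slc17a7, Neurod6, Tbr1, Emx1) summed to 709 to 801 FPKM in control and 690.3 to 765 FPKM in cocktail, so the excitatory markers of the labelled tissue were present. In these bulk samples, fewer cells of a type and less RNA per cell cannot be told apart. The labels do not say whether the mice came from separate litters or were processed on separate days.

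In control auditory cortex, Ppp1r1b was far above every receptor transcript, and Drd1 was the most abundant receptor. The order of mean levels was Ppp1r1b, Drd1, Drd5, Drd2, Drd4 and Drd3. The mean control level of Ppp1r1b was 22.9 ± 3.64 FPKM (SD, n = 6), higher than 85.4% of all loci, and Drd1 averaged 3.10 ± 0.576 FPKM (SD, n = 6), higher than 52.8% of loci. Drd5 averaged 1.65 ± 0.676 FPKM, Drd2 0.721 ± 0.184 FPKM, Drd4 0.325 ± 0.106 FPKM and Drd3 0.0290 ± 0.0338 FPKM (SD, n = 6 each). Each of the 5 neighbouring pairs in this order was ordered the same way in 6 of 6 control libraries, with p = 0.03125 for each pair by an exact permutation test that flips signs (two-sided), the smallest that 6 libraries allow, and 0.03125 after adjustment over the 5 pairs. The pairs and their direction were taken from the means of these same libraries, so these p-values give no independent support for the order. The ratio of means was 7.37 between Ppp1r1b and Drd1, 1.88 between Drd1 and Drd5, 2.28 between Drd5 and Drd2, 2.22 between Drd2 and Drd4 and 11.2 between Drd4 and Drd3. The FPKM ranges over the 6 libraries overlapped for Drd1 with Drd5 and for Drd5 with Drd2, and were apart for the other 3 pairs. The last ratio rests on 4 reads of Drd3 in all control libraries together. Control mouse 4 held 2 reads of Drd4 and 1 of Drd3. In control mouse 6, without a read of Drd3, 3 reads would be 0.196 FPKM, above the lowest Drd4 value of 0.152 FPKM in control mouse 4.

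**Figure D1:**
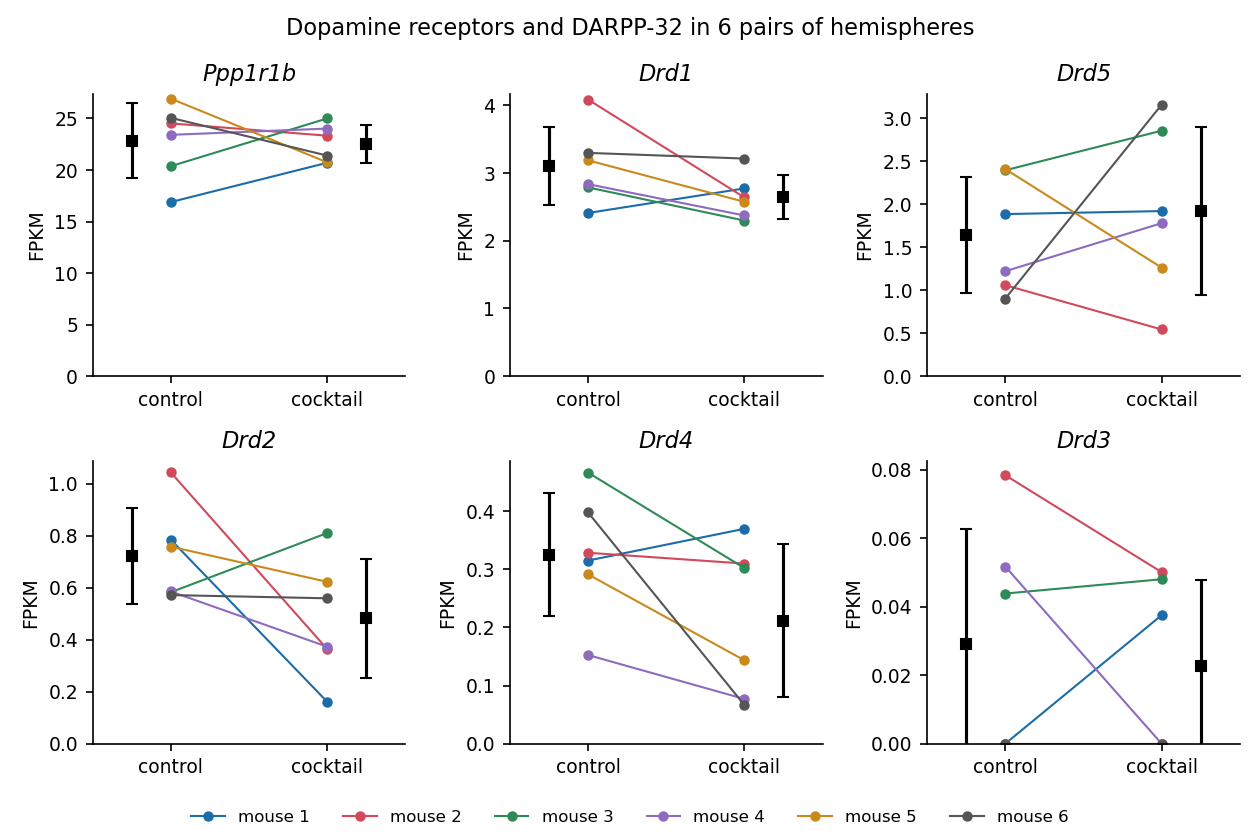
FPKM of each gene in the control and cocktail hemisphere of 6 mice, each line joining the hemispheres of 1 mouse; black squares are group means and bars 1 SD, cut at 0 for Drd3. The groups overlap for every gene, and Drd5 moves from 0.904 to 3.16 FPKM in mouse 6 and from 2.41 to 1.26 FPKM in mouse 5.

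None of the 6 genes was called between cocktail and control. The comparison used limma on log2(FPKM + 1) with the mouse as a block, over the 12032 loci with a mean of at least 1 FPKM, and called a locus at a Benjamini-Hochberg adjusted p under 0.05. It called 180 loci (1.5%), 147 of them higher (1.22%) and 33 lower (0.274%) in the cocktail. Ppp1r1b, Drd1 and Drd5 passed the filter on low levels. Drd2, Drd3 and Drd4 had a mean under 1 FPKM and take their values from the same fit without the filter, in which 123 of 17477 loci were called (0.704%). A pseudocount of 1 shrinks the fold changes of such low genes. Before adjustment 1 of the 6 genes, Drd4, passed 0.05, in the limma fit without the filter. With the filter, 968 of the 12032 loci had an unadjusted p under 0.05. That number is not given here for the fit without the filter. Voom on the recovered reads also called 0 of the 6 genes, with 0 at an unadjusted p under 0.05. It called 123 of the 12032 loci that passed the filter.

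Ppp1r1b, the DARPP-32 gene, had 16.9, 24.5, 20.4, 23.4, 26.9 and 25.1 FPKM in the control hemispheres of mice 1 to 6. The cocktail hemispheres had 20.7, 23.3, 25.0, 24.0, 20.7 and 21.4 FPKM, with a mean of 22.5 ± 1.83 (SD, n = 6). The lowest value was that of control mouse 1, the cocktail values lay within the control range, and the cocktail was higher in 3 of 6 mice. The log2 fold change was -0.01 (SE 0.081, 95% interval -0.19 to 0.17, limma adjusted p = 0.991), and the exact sign-flip permutation test gave p = 0.90625. On this scale the interval spans a fold of 0.879 to 1.12. Without mouse 1 the log2 fold change was -0.07.

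The level of Ppp1r1b in single libraries depended on how reads were turned into FPKM. The numbers of reads behind its FPKM, recovered from the deposited confidence intervals, came to 68.4 RPM (recovered reads per 1000000 recovered reads of the library) in control mouse 1 and 73.2 RPM in control mouse 2, the highest values of the 12 libraries, whereas the FPKM of control mouse 1 was the lowest of all. The other control libraries had 52.9 to 66.9 and the cocktail libraries 50.0 to 63.4 RPM. An RPM of 1 was worth 0.247 FPKM in control mouse 1, 0.335 in control mouse 2 and 0.362 to 0.427 in the other 10 libraries. The highest of these ratios was 1.73 times the lowest, a spread larger than that of 99.1% of the 9666 loci with over 100 reads in every library, whose median was 1.18. The FPKM were made with Cufflinks' bias correction, whose part in this was not tested. For Drd1 the same spread was 1.05 times and for Drd5 1.17 times, so this concerned Ppp1r1b among the 3 genes with most reads. Control mouse 1 also stood apart over the whole library, with an FPKM sum over all loci of 290155, against 306085 to 321759 in the other libraries. With voom on the recovered reads, Ppp1r1b had a log2 fold change of -0.13 (95% interval -0.32 to 0.07, adjusted p = 0.588), and RPM values were higher in the cocktail in 2 of 6 mice.

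**Figure D2:**
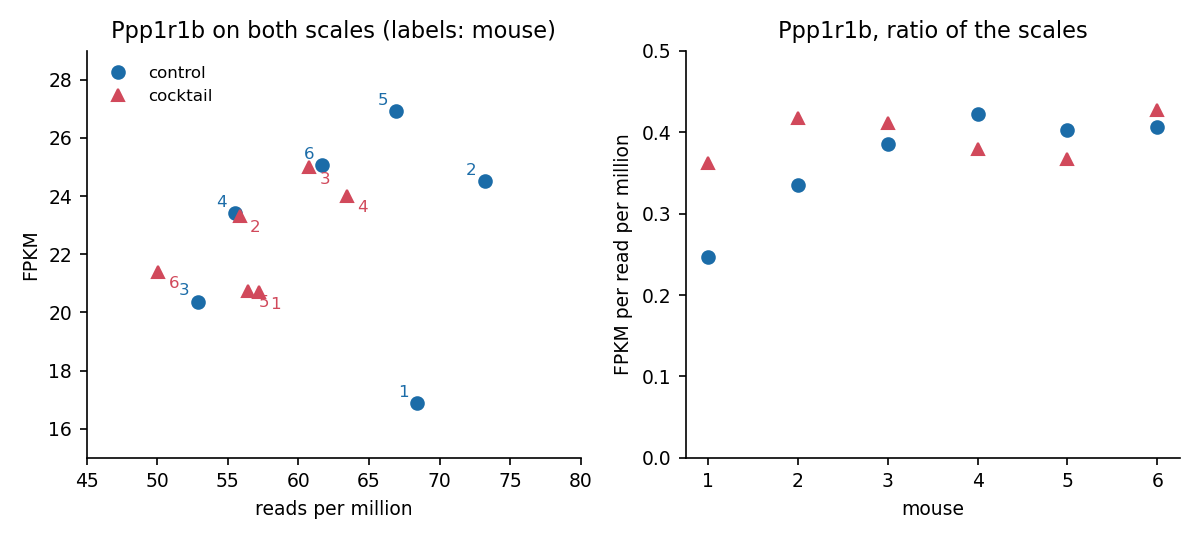
Left, FPKM of Ppp1r1b against its RPM in the 12 libraries, labelled by mouse number (circles, control; triangles, cocktail; the axes do not start at 0). Right, FPKM divided by RPM, by mouse. Control mouse 1 lies apart, with the lowest FPKM (16.9) at 68.4 RPM.

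Drd1, the D1 receptor gene, had 2.41, 4.09, 2.79, 2.84, 3.19 and 3.30 FPKM in control and 2.77, 2.64, 2.30, 2.37, 2.58 and 3.21 FPKM in cocktail. The cocktail mean was 2.65 ± 0.328 FPKM (SD, n = 6). Cocktail values were lower in 5 of 6 mice, with the largest gap in mouse 2, whose control library was the highest of all, and the groups overlapped. The log2 fold change was -0.16 (SE 0.076, 95% interval -0.33 to 0.00, limma adjusted p = 0.632), and the exact sign-flip permutation p was 0.09375. Each library held 101 to 213 reads of Drd1, and the standard deviation was 18.6% of the mean in control and 12.4% in cocktail, against 8.21% and 8.75% from counting error alone.

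Drd5, the D5 receptor gene and the second D1-like member, had 1.89, 1.06, 2.40, 1.22, 2.41 and 0.904 FPKM in control. It had 1.92, 0.544, 2.86, 1.78, 1.26 and 3.16 FPKM in cocktail, with a mean of 1.92 ± 0.976 (SD, n = 6). The lowest and the highest library were both cocktail hemispheres, of mice 2 and 6, and the cocktail was higher in 4 of 6 mice. The log2 fold change was 0.11 (SE 0.172, 95% interval -0.27 to 0.48, limma adjusted p = 0.927), and the exact sign-flip permutation p was 0.71875. Without mouse 6 the log2 fold change was -0.10.

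Drd5 varied more between libraries than nearly all loci of its level. The highest library was 5.81 times the lowest, on 19 to 131 reads per library. The standard deviation was 41.0% of the mean in control and 50.8% in cocktail, against 12% and 11.3% from counting error alone. On the log2(FPKM + 1) scale its standard deviation within a condition was 0.45, larger than that of 99.3% of the 1534 tested loci within 1.5-fold of its mean level, whose median was 0.151. The same quantity was 0.18 for Ppp1r1b, larger than for 85.9% of 2504 loci of its level, and 0.17 for Drd1, larger than for 62.8% of 1976 loci. Within-mouse differences of Drd5 ran from -0.59 in mouse 5 to 1.13 in mouse 6 on the log2 scale.

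**Figure D3:**
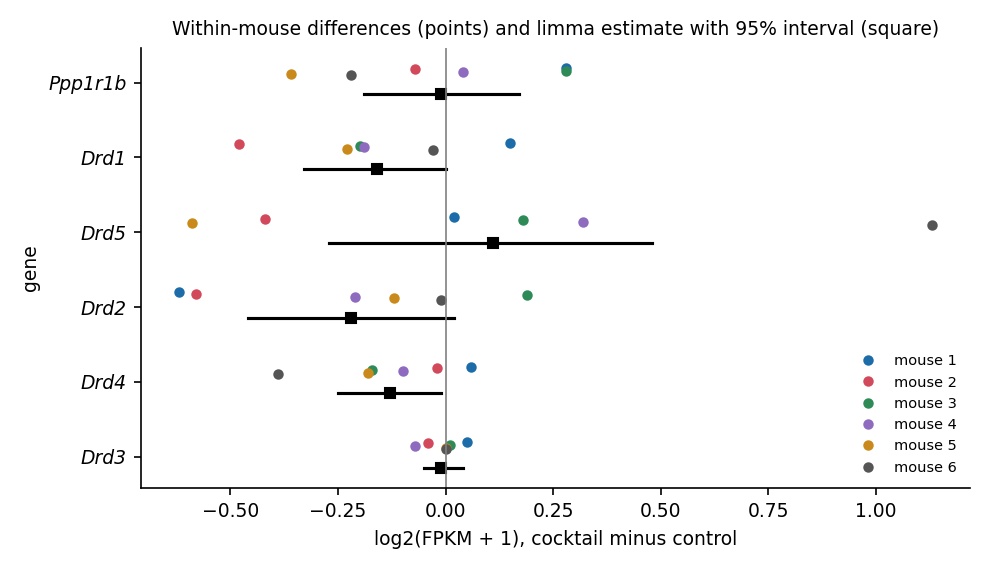
Difference in log2(FPKM + 1) between the cocktail and control hemisphere of each mouse (points, coloured by mouse) and the limma log2 fold change with its 95% interval (black square and line). The intervals of Ppp1r1b, Drd1, Drd5, Drd2 and Drd3 reach 0 or cross it, that of Drd4 ends at -0.01 before adjustment, and the Drd5 points spread the most.

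Drd2, the D2 receptor gene, had 0.785, 1.04, 0.583, 0.586, 0.758 and 0.572 FPKM in control and 0.162, 0.364, 0.811, 0.373, 0.623 and 0.560 FPKM in cocktail. The cocktail mean was 0.482 ± 0.229 FPKM (SD, n = 6). Mouse 3 was higher in the cocktail and the other 5 mice were lower, by as little as 0.01 on the log2 scale in mouse 6. The log2 fold change was -0.22 (SE 0.105, 95% interval -0.46 to 0.02, limma adjusted p = 0.661), with an exact sign-flip permutation p of 0.15625. Drd2 rested on 96 reads over the control and 60 over the cocktail libraries. With a pseudocount of 0.1 the log2 fold change was -0.58 (95% interval -1.17 to 0.02), and with voom on the reads it was -0.68 (95% interval -1.44 to 0.08). Neither was called, with adjusted p of 0.659 and 0.558.

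Drd4, the D4 receptor gene, had 0.315, 0.328, 0.466, 0.152, 0.291 and 0.398 FPKM in control and 0.369, 0.310, 0.302, 0.0769, 0.143 and 0.0665 FPKM in cocktail. The cocktail mean was 0.211 ± 0.132 FPKM (SD, n = 6), and 5 of 6 mice were lower in the cocktail. The log2 fold change was -0.13 (SE 0.053, 95% interval -0.25 to -0.01, limma adjusted p = 0.546), with an exact sign-flip permutation p of 0.09375. With a pseudocount of 0.1 the log2 fold change was -0.53 (95% interval -1.0 to -0.06), and with voom on the reads it was -0.64 (95% interval -1.38 to 0.10). Neither was called, with adjusted p of 0.563 and 0.573. Drd4 rested on 28 reads in control and 18 in cocktail, with 1 to 7 reads in a library. The standard deviation was 32.6% of the mean in control and 62.3% in cocktail, against 46.3% and 57.7% from counting error alone.

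Drd3, the D3 receptor gene, had at most 2 reads in any library, and reads in 6 of 12 libraries. The control values were 0, 0.0784, 0.0439, 0.0517, 0 and 0 FPKM, and the cocktail values 0.0375, 0.0501, 0.0480, 0, 0 and 0 FPKM. A count of 0 allows up to 3 reads, which is 0.105 to 0.196 FPKM in the libraries without a read, by counting error only. Both groups were below this limit, so no fold is given. The difference on the log2(FPKM + 1) scale was -0.01 (95% interval -0.05 to 0.04, limma adjusted p = 0.954).

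The D1-like genes made up most of the receptor transcripts in every library. Their share of the summed receptor FPKM was 78% to 84.2% in control, with a mean of 81.6% ± 2.42 (SD, n = 6), and 81.5% to 91.1% in cocktail, with a mean of 86.2% ± 4.47 (SD, n = 6). The share was higher in the cocktail in 4 of 6 mice, by 4.59 percentage points on average with an SD of 4.85 between mice, and the ranges overlapped. With recovered reads in place of FPKM the average difference was 2.41 percentage points. The summed receptor FPKM was 5.82 ± 0.780 in control and 5.28 ± 1.17 in cocktail (SD, n = 6 each), and was higher in the cocktail in 2 of 6 mice. Drd5 had the widest range in FPKM of the 5 genes, with the highest sum of 7.00 FPKM in cocktail mouse 6 and the lowest of 3.91 FPKM in cocktail mouse 2. The level of Ppp1r1b was 3.06 to 5.97 times the summed receptors.

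**Figure D4:**
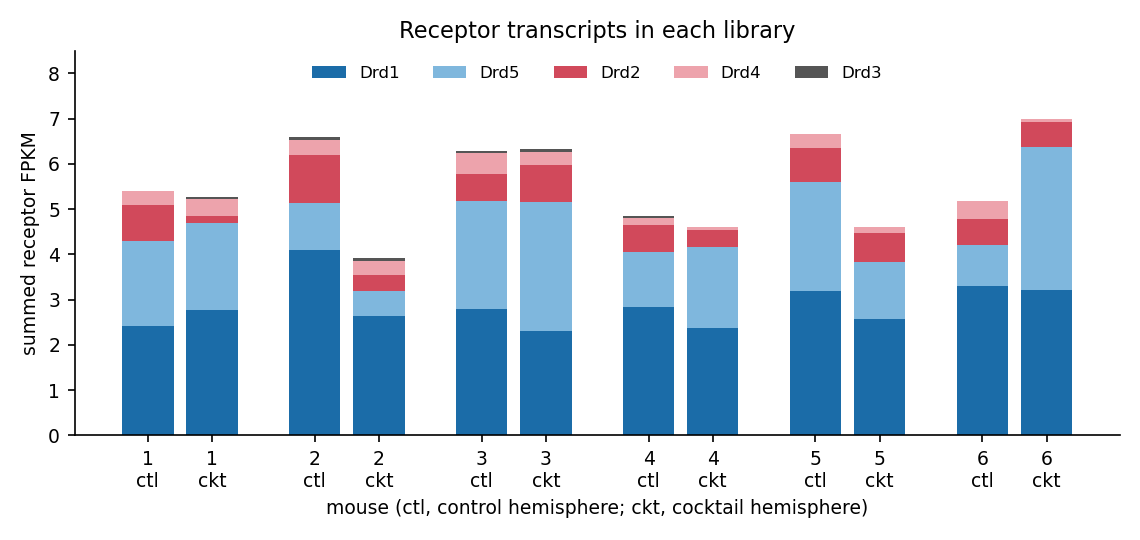
Summed FPKM of the 5 receptor genes in each library, stacked by gene, with control and cocktail hemispheres of each mouse side by side. Drd1 and Drd5 (blues) make up 78% to 91.1% of each bar, and the height runs from 3.91 to 7.00 FPKM.

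The loci most like each gene were found by the Spearman correlation over 12 libraries of log2(FPKM + 1), centred within each condition, among loci with at least 1 FPKM. These libraries share depth, hemisphere pairs and processing, so the values are descriptions. For Drd5 the nearest loci were St6galnac5, a sialyltransferase gene, with 0.96, Cotl1 with 0.95, Lrrn2 with 0.95, Gpr161, an orphan receptor of the primary cilium, with 0.94, and Gstm6 with 0.94, against a median of 0.0210 over all loci. Gpr161 ran from 2.00 FPKM in cocktail mouse 2 to 8.67 FPKM in cocktail mouse 3, and St6galnac5 from 11.2 to 25.5 FPKM in these same libraries. On the RPM scale the 5 values for Drd5 were 0.65 to 0.93.

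**Figure D5:**
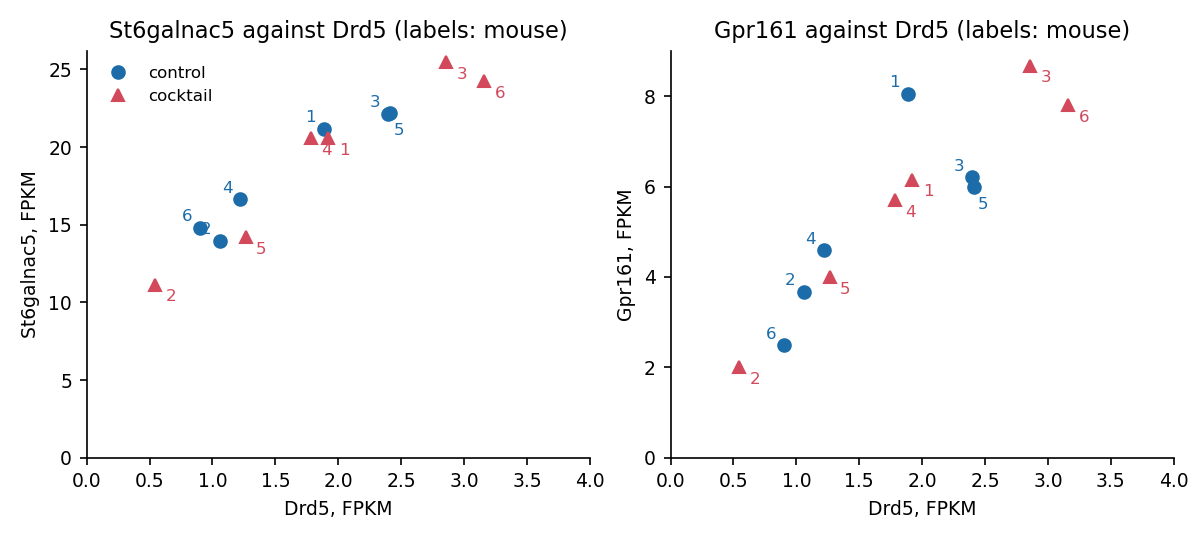
FPKM of St6galnac5 (left) and Gpr161 (right) against FPKM of Drd5 in the 12 libraries, labelled by mouse number (circles, control; triangles, cocktail). Both genes are lowest in cocktail mouse 2 and highest in cocktail mouse 3, with Drd5 from 0.544 to 3.16 FPKM.

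For Drd1 the nearest loci were Prune2 with 0.94, BC028528 with 0.91, Ids with 0.91, Lancl3 with 0.90 and Lmbr1 with 0.87, against a median of 0.0769 over all loci, and 0.76 to 0.94 on the RPM scale. For Ppp1r1b they were Penk, the proenkephalin gene, with 0.94, Col11a1 with 0.92, Vps26a with 0.90, Cyb5r4 with 0.89 and 3110040N11Rik with 0.88, against a median of 0.238. On the RPM scale the same 5 loci had 0.08 to 0.52 with Ppp1r1b, so its nearest loci depended on the scale. Among the members themselves the correlation was 0.26 between Ppp1r1b and Drd1, -0.08 between Ppp1r1b and Drd5 and -0.25 between Drd1 and Drd5.

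Drd1, Drd2 and Ppp1r1b are abundant in the striatum, so the genes were set against 12 striatal marker genes that include no member. The marker sum was 40.4 to 57 FPKM in control (median 46.8) and 39.1 to 51.4 FPKM in cocktail (median 45.5), most of it from Penk, Pde10a and Tac1, which cortical neurons also express. Other striatal markers were present at low levels in control, with means of 4.31 FPKM for Rgs9, 1.90 for Rarb, 1.33 for Adora2a (up to 2.43), 1.18 for Syndig1l and 0.990 for Gpr6 (up to 1.66). The markers Six3 and Isl1 were at or near 0, with at most 0.146 and 0.0982 FPKM in any library, and Isl1 was listed at 0 in all 6 cocktail libraries. Of the 12 genes 7 were tested and limma called 0, with 0 at an unadjusted p under 0.05. Voom called 0, with 1 at an unadjusted p under 0.05, Adora2a. Over all 12032 loci tested, limma called 180, with 968 at an unadjusted p under 0.05, and voom called 123. With so few loci called over all, 0 of 7 is near the background.

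Over the 6 mice, no relation of these genes with the marker sum passed after adjustment over the 6 relations computed. The list as first drawn up held 1 further gene that is not reported here, and with it the correlation of Ppp1r1b with the sum over mice was much higher, so the values depend on which genes are summed. The mean Ppp1r1b level of both hemispheres had Pearson r = 0.40 (exact permutation p = 0.461, adjusted 0.692) and Spearman rho = 0.54 (exact permutation p = 0.297, adjusted 0.533) with the marker sum. Its within-mouse differences gave r = 0.76 (exact permutation p = 0.10, adjusted 0.308) and rho = 0.89 (exact permutation p = 0.0333, adjusted 0.20). Without the 2 mice farthest from the median of the marker sum, r was 0.39 for the means and 0.84 for the differences. On the RPM scale the means gave r = 0.29 (exact permutation p = 0.540) and the differences r = 0.54 (exact permutation p = 0.35) for Ppp1r1b. The marker sum includes Penk, at a control mean of 14.7 FPKM. Penk was also the locus nearest to Ppp1r1b in pattern, with 0.94 in FPKM and 0.52 on the RPM scale. Control mouse 1 had the lowest FPKM of Ppp1r1b and the lowest control marker sum, 40.35 FPKM against 40.8 FPKM in control mouse 6. On the RPM scale control mouse 1 had the second highest level of Ppp1r1b. Its marker sum on that scale was 177.5 RPM, within the control range of 126 to 209.7 RPM. For Drd1, r was 0.04 for the means and 0.71 for the differences (exact permutation p = 0.961 and 0.103, adjusted 0.961 and 0.308). For Drd2, r was 0.57 and 0.12 (exact permutation p = 0.242 and 0.869, adjusted 0.483 and 0.961). The rho values were 0.03 and 0.71 for Drd1 and 0.49 and -0.14 for Drd2 (exact permutation p = 1, 0.136, 0.356 and 0.803, adjusted 1, 0.408, 0.533 and 0.963). Without the 2 farthest mice, r was -0.66 for the means and 0.61 for the differences of Drd1, and -0.02 and -0.64 for those of Drd2.

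The machinery that carries a dopamine signal inside the cell was abundant, and none of its genes was called. Of 59 listed genes for transduction downstream of the receptors, all were tested, 31 had a higher and 28 a lower mean of log2(FPKM + 1) in the cocktail, and limma called 0, beside 1.5% of all loci, with 0 at an unadjusted p under 0.05. With so few loci called over all, 0 of 59 is near the background. Voom also called 0, beside 123 of the 12032 loci, with 2 at an unadjusted p under 0.05, the adenylyl cyclase genes Adcy1 and Adcy6. How many of all loci passed that unadjusted p with voom is not given here. The median log2 fold change was 0.00, beside 0.008 over all loci tested, of which 968 had an unadjusted p under 0.05. Without mouse 1 the median over all loci tested was -0.013. The sum of the 59 genes was 4154 to 5005 FPKM in control and 4654 to 4967 FPKM in cocktail.

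Among 9 G protein genes, 6 had a higher mean in the cocktail. Gnas, which encodes the stimulatory alpha subunit used by D1-like receptors, was the highest, at 625 ± 54.5 FPKM (control) and 653 ± 40.2 FPKM (cocktail) (log2 fold change 0.06, 95% interval -0.03 to 0.16). Gnal, which encodes the alpha subunit that replaces it in striatal neurons, had 24.2 ± 2.12 and 24.0 ± 1.16 FPKM. Of 7 adenylyl cyclase genes, whose products make cyclic AMP, 6 had a lower mean in the cocktail, and Adcy1 was the highest with 108 ± 8.55 and 102 ± 5.32 FPKM (log2 fold change -0.08, 95% interval -0.17 to 0.02). Of 6 protein kinase A genes 4 had a higher mean, and Prkar1b, a regulatory subunit, was the highest with 254 ± 17.3 and 242 ± 12.9 FPKM. All 3 cyclic nucleotide phosphodiesterase genes had a lower mean, with Pde2a highest at 118 ± 4.82 and 114 ± 5.10 FPKM. None of these genes was called.

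The kinases and phosphatases that act on DARPP-32 were likewise not called. Cdk5r1, the activator of Cdk5, was the highest of 7 other kinase genes, of which 4 had a higher mean, at 109 ± 9.07 FPKM (control) and 110 ± 8.97 FPKM (cocktail). Ppp3r1, the regulatory subunit of calcineurin, was the highest of 6 phosphatase genes, all with a higher mean of log2(FPKM + 1), at 364 ± 53.9 and 364 ± 17.9 FPKM. Protein phosphatase 1, the enzyme that DARPP-32 inhibits, and its partners were represented by 7 genes, 6 of them with a higher mean. The highest was Ppp1r9b, which encodes spinophilin, with 179 ± 16.3 and 176 ± 17.7 FPKM. Of 6 receptor kinase and arrestin genes, whose products switch receptors off, 5 had a lower mean, and Adrbk1 was the highest at 65.4 ± 4.05 and 64.3 ± 3.03 FPKM. Of 8 other partners of the receptors 5 had a lower mean, and Gsk3a, a kinase inhibited by Akt, was the highest at 95.5 ± 6.69 and 90.7 ± 5.41 FPKM. The 95% intervals of the log2 fold changes of these highest genes lay between -0.18 and 0.19.

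Genes that make and move dopamine were low. Th, the rate-limiting enzyme of dopamine synthesis, had 0.875 ± 0.199 FPKM in control and 0.796 ± 0.163 FPKM in cocktail. The transporter genes Slc6a3 and Slc18a2 had 0.0269 ± 0.0234 and 0.0832 ± 0.0196 FPKM in control. Dbh, whose product turns dopamine into norepinephrine, and Pitx3, a transcription factor of midbrain dopamine neurons, had 0.110 ± 0.0480 and 0.0281 ± 0.0440 FPKM in control. Only Ddc, the decarboxylase that also serves serotonin synthesis, passed the filter on low levels, at 1.49 ± 0.219 FPKM (control) and 1.85 ± 0.113 FPKM (cocktail) (log2 fold change 0.20, 95% interval 0.06 to 0.34, limma adjusted p = 0.276), and it was not called.

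Genes that D1 receptor activation is known to induce did change. Of 10 such genes 7 rose in the cocktail, against 1.22% of all loci tested, and 0 fell. The list was chosen with earlier results of these data known. The study had itself reported that the cocktail induced many immediate-early genes in these slices, so 7 of 10 describes the list and tests nothing. Fos, an immediate-early transcription factor gene, rose from 322 ± 69.6 to 632 ± 79.5 FPKM (SD, n = 6 each, log2 fold change 0.99, SE 0.079, limma adjusted p = 2.92e-05), and Fosb, Junb, Arc, Egr1, Nr4a1 and Dusp1, also called by voom, rose by 0.55 to 0.86 on the log2 scale. The neuropeptide genes Pdyn and Tac1, known targets in D1 receptor neurons of the striatum, and Homer1 were not called, with log2 fold changes of -0.03, 0.15 and 0.11. The genes that rose are also induced by depolarization and by the other agents of the cocktail, so these data cannot tell a dopamine response apart.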

How the data were processed

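RNA from 12 auditory cortices, 6 control and 6 cocktail hemispheres of 6 mice, was sequenced as strand-specific poly-A libraries with 50 base single reads. Per the study's methods, the authors removed ribosomal reads with BWA 0.6.1, aligned the rest to mm10 with TopHat 1.4.1 and deposited FPKM from Cufflinks 1.3.0, bias corrected and scaled to fragments on protein coding genes. The authors' comparison table (mean counts, fold changes and p-values from DESeq2) was not used here.

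Values of log2(FPKM + 1) were fitted with limma 3.58.1 (R 4.3.3), using a variance trend and terms for condition and mouse, for the 12032 of 20989 loci that averaged 1 FPKM or more. The fit was tested on simulated data. Reads were recovered from the FPKM confidence intervals, which span 2 Poisson standard deviations. Of 36412 values under 20 reads, 82.8% were whole within 0.05. Libraries of 1 condition differed by more than sampling noise (chi-square per locus of at least 7.10), so none was a duplicate. Intervals and limits from reads cover counting error only.

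Mouse numbers in the labels pair the hemispheres of 1 animal. Deviations from group means correlated at 0.216 to 0.406 across loci in all 6 pairs, and at -0.420 to 0.445 between different mice. The p-values rest on the spread between these 6 animals, and those of limma and voom on a variance that also draws on the other loci. With 1 library per hemisphere, variation of slice, dissection and library is part of that spread. Single-gene tests were exact sign-flip permutations over 6 mice, which cannot go below 0.03125.

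The genes and lists were chosen with earlier results of these data known. Named besides the 6 genes are the highest control gene of each role in the transduction list, all dopamine synthesis and transport genes that were called, and the 5 loci nearest in pattern to each gene with at least 50 reads per library on average. Gnal, the uncalled synthesis and transport genes, and the genes of the D1-induced and striatal lists were named in addition, after their values were seen. Epb41l1 was matched through its older symbol. From the striatal and the cortical excitatory list 1 gene each is not reported here and was left out of sums and relations, which lowered the correlation of Ppp1r1b with the striatal markers. Alternatives were another pseudocount, filter, scaling, variance model and pairing, voom on the recovered reads, and each mouse left out. RPM values, per 1000000 recovered reads, were added after seeing the data. Sequences are from RefSeq, with 5 of the 6 genes matched.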

Additional observations from a re-analysis of the deposited data

Results flagged for a closer look

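None of 20 sets of 6 values was flagged for a sample far from the others by Dixon's 95% critical value. The sets were the FPKM of each of the 6 genes in each condition, the 6 sets of within-mouse differences, and the share of D1-like receptors in each condition. Chance flags about 1 in 20 sets.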

How the results depend on the processing

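The number of loci called, 180 with the mouse as block, was 88 with no replicate block and 104 to 181 with each mouse left out (lowest without mouse 4). Over 76 alternative fits of the 6 genes 0 were called, with adjusted p from 0.267 to 0.999 (limma, voom included), and with no replicate block the calls of the 6 genes and of every gene list were as with the block, except that Ctgf was not called. Leaving out 1 mouse gave log2 fold changes of -0.22 to -0.10 for Drd1 (weakest without mouse 2), -0.31 to -0.14 for Drd2 (weakest without mouse 1) and -0.17 to -0.08 for Drd4 (weakest without mouse 6). It turned the sign of 3 genes, with log2 fold changes of -0.07 to 0.06 for Ppp1r1b (positive without mice 5 and 6, 0.00 without mouse 2), -0.10 to 0.25 for Drd5 (negative without mouse 6), and -0.02 to 0.00 for Drd3. The order of levels held its direction in every subset, with log2 differences of 2.50 to 2.58 (Ppp1r1b over Drd1), 0.53 to 0.76 (Drd1 over Drd5), 0.48 to 0.70 (Drd5 over Drd2), 0.33 to 0.43 (Drd2 over Drd4) and 0.34 to 0.41 (Drd4 over Drd3), where 5 libraries cannot go below an exact permutation p of 0.0625.

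The striatal relations depended on the processing. With the mean log2 level of the list, r was 0.76 for the Drd1 differences (exact permutation p = 0.0306), against 0.71. On the RPM scale, chosen after seeing the data, r was -0.33 and 0.22 for the Drd1 means and differences (exact permutation p = 0.475 and 0.674), and 0.59 for the Drd2 differences, against 0.12. Without the 2 farthest mice, r was -0.66 for the Drd1 means, and -0.02 and -0.64 for the Drd2 means and differences. The cause was not tested. Depth limits Drd2, Drd4 and Drd3, with at most 25, 7 and 2 reads in a library.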

Other observations

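Markers of other cells and regions were measured in the same libraries, and 1 of these genes was called. Ctgf, a gene of the deepest cortical layer that encodes a secreted matrix protein, was 12 ± 2.46 FPKM in control and 16.6 ± 3.02 FPKM in cocktail (SD, n = 6 each, log2 fold change 0.44, limma adjusted p = 0.0132), and was not called without the mouse as block. The other 9 deep layer genes were not called, and the sum of all 10 was 99.0 to 119.7 FPKM in control and 103.8 to 128.6 FPKM in cocktail. The 6 inhibitory neuron markers all had a higher mean in the cocktail and none was called, with sums of 479.8 to 540.2 FPKM in control and 510.6 to 556.9 FPKM in cocktail. The 4 oligodendrocyte markers also all had a higher mean, with sums of 1735 to 2273 and 2017 to 2347 FPKM. Sums were 176.3 to 219.7 and 189.4 to 231.4 FPKM for 4 astrocyte, 36.4 to 40.6 and 33.5 to 42.4 FPKM for 4 microglia, and 32.2 to 39.9 and 32.2 to 42.0 FPKM for 3 endothelial markers. Markers of neighbouring tissue were low, with at most 2.07 FPKM in sum for choroid plexus, 8.01 for thalamus and 3.50 for hippocampus in any library. Limma called no gene of these lists other than Ctgf, with 0 of the others at an unadjusted p under 0.05. Voom also called only Ctgf, with Gad2, Cx3cr1 and Prox1 at an unadjusted p under 0.05. Over all 12032 loci tested, limma called 180, with 968 at an unadjusted p under 0.05, and voom called 123. The part of these other cells and regions in the levels of the dopamine receptor genes was not tested.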
